A study of Homo sapiens with 6 samples.

Results

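A set of 9 genes known as targets of the transcriptional coactivator YAP and its DNA-binding partners of the TEAD family were followed in KYSE510 cells, an established line of oesophageal squamous cell carcinoma. The 9 members, CCN1, CCN2, ANKRD1, AMOTL1, AMOTL2, NUAK2, AJUBA, AXL and CRIM1, were matched by symbol to 9 of the 62700 gene IDs of the count table, and all 9 were among the 19682 genes that passed the filter on low counts. The study compared 3 libraries of cells with a control shRNA (shControl, genotype labelled WT) with 3 libraries of cells with an shRNA against the ribonuclease that the labels name RNH1 (shRNH1), a model meant to induce R-loops, in which RNA pairs with DNA. All cells were of this 1 line and grew in serum-containing medium. The labels describe a knockdown and do not give the shRNA sequence, the time after knockdown, or whether clones or pools were used. The members were chosen because they were lower in shRNH1 in this same contrast, so their differences are described below with no test, and support nothing.

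YAP and its paralog TAZ are carried out of the nucleus or degraded when the kinases of the Hippo pathway phosphorylate them. In the nucleus they bind TEAD proteins, which recognise a short DNA motif, and switch on genes of matrix signalling, cytoskeleton and growth. Stiff matrix, spreading and actin tension favour the nuclear state. Several of the targets feed back on the pathway, among them AMOTL2 and LATS2, which restrain YAP.

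The genes lie, by GENCODE 29 on GRCh38, on both strands. On the plus strand are CCN1 (ENSG00000142871, chr1:85580761-85583962), AMOTL1 (ENSG00000166025, chr11:94706431-94876753), AXL (ENSG00000167601, chr19:41219203-41261766) and CRIM1 (ENSG00000150938, chr2:36355926-36551135). On the minus strand are CCN2 (ENSG00000118523, chr6:131948176-131951373), ANKRD1 (ENSG00000148677, chr10:90912096-90921276), AMOTL2 (ENSG00000114019, chr3:134355874-134375479), NUAK2 (ENSG00000163545, chr1:205302059-205321791) and AJUBA (ENSG00000129474, chr14:22971174-22982642).

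Promoters are shown first because TEAD proteins are known to act on such genes through a short DNA motif. RefSeq promoter windows (GRCh38.p14, 250 bases before to 50 after each start) were found for 7 of the 9 members, in 10 windows; CCN1 and CRIM1 were not matched. The core motif CATTCC, searched on both strands, was present in at least 1 window of 6 of these 7 genes, CCN2, ANKRD1, AMOTL2, NUAK2, AJUBA and AXL, and AMOTL1 had none. By window, 60% of the members' windows and 14.0% of all 35116 windows held it. CCN2 had 3 copies, 169 to 164, 104 to 99 and 95 to 90 bases before its start, and 0.165% of the 27305 genes with a window had 3 or more copies in 1 window. For CCN2 the 200 bases from 250 to 51 before the start are shown, and the other matches as windows of 30 bases, 5' to 3' on the gene's strand, with the motif, or GGAATG where it lies on the other strand, in capitals.
CCN2, chr6:131951423-131951622, minus strand: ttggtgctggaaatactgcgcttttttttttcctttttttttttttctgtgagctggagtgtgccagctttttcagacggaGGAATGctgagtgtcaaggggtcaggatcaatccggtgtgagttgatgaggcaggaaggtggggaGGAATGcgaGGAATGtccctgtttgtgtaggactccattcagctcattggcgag
ANKRD1, chr10:90921290-90921319, minus strand: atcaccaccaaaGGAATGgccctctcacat
ANKRD1, chr10:90921198-90921227, minus strand: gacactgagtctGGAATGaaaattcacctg
AMOTL2, chr3:134374499-134374528, minus strand: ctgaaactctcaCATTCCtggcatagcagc
NUAK2, chr1:205321925-205321954, minus strand: tcccctagtcccCATTCCtggtgggcgggt
NUAK2, chr1:205321746-205321775, minus strand: ttataacaacttGGAATGctgtgctttact
AJUBA, chr14:22976884-22976913, minus strand: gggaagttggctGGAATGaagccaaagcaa
AXL, chr19:41226531-41226560, plus strand: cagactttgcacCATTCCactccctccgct
In AMOTL2, AJUBA and AXL the match lay in 1 of 2 annotated windows. In each it was the window of the start further inside the gene, and the window at the gene's 5' end held no match. Which start these cells use was not tested. The AP-1 motif TGANTCA occurred once among the members, 195 to 189 bases before the ANKRD1 start, against 9.37% of all genes with a window. The CArG box that serum response factor (SRF) binds occurred in 0 of the 10 windows, against 1.29% of all windows. A match is a run of letters in this window and says nothing of occupancy.

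The libraries held 31394687 to 41103220 counts, and the members together took 0.192% to 0.204% of the counts of the shControl libraries and 0.107% to 0.116% of the shRNH1 libraries. RNASEH1, the nuclease that cuts RNA in RNA:DNA hybrids, fell from 31.6 ± 3.73 to 7.16 ± 0.213 CPM (SD, n = 3 each; counts scaled to a common library total after TMM normalisation). The ribonuclease inhibitor gene whose approved symbol is RNH1 measured 546 ± 97.4 and 478 ± 45.5 CPM, and its groups overlapped (adjusted p = 0.221, edgeR's quasi-likelihood test). Over all genes tested, 27.6% passed that test at an adjusted p below 0.05, 12.3% lower and 15.3% higher in shRNH1, and the CPM ranges of the groups did not overlap for 40%. Of 10 squamous markers, all tested, 4 fell and 2 rose. TP63, which marks the squamous lineage, measured 53.2 ± 3.64 and 52.5 ± 4.38 CPM (SD, n = 3 each) and did not pass, like the abundant KRT17 and DSP. The keratins KRT6A (log2 fold change -2.13), KRT14 (-1.40) and KRT5 (-1.33) fell, as did SFN (-0.37), while SOX2 (0.748 to 4.78 CPM) and PKP1 (0.0252 to 0.459 CPM) rose from low levels. Of 10 fibroblast markers, a cell type in which several members are abundant, 5 could be tested, COL1A2 and DCN were listed at 0 in all libraries, and COL3A1, LUM and PDGFRA stayed under the filter. COL1A1 rose from 62.5 ± 5.01 to 123 ± 12.5 CPM and FBLN1 from 241 ± 15.8 to 418 ± 21.3 CPM (SD, n = 3 each), PDGFRB fell (-0.91), COL5A1 measured 648 ± 111 and 621 ± 101 CPM and did not pass, and the summed level of the list was 855 to 1105 CPM in shControl and 1018 to 1279 in shRNH1. Of 8 leukocyte markers 3 could be tested and 1, ITGAM (0.154 to 0.757 CPM), rose, and the list summed to 5.91 to 7.46 CPM in shControl and 8.06 to 10.2 in shRNH1. Most of this sum was CSF1R, at 5.91 ± 0.813 and 7.02 ± 1.25 CPM (SD, n = 3 each). Its groups overlapped and it did not pass (adjusted p = 0.249, edgeR's quasi-likelihood test). The part of these other markers in the members' levels was not tested. In bulk RNA, fewer cells expressing a gene and less RNA per cell cannot be told apart.

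CCN1 and CCN2 encode secreted matricellular proteins that bind integrins and are the most used readouts of YAP. CCN1 measured 242, 287 and 308 CPM in shControl and 53.3, 54.8 and 51.2 CPM in shRNH1. The shRNH1 libraries lay within a few CPM of each other and far below every control, and the fitted level was 19.0% of control (95% interval 16.4% to 22.02%). CCN2 was a much scarcer transcript, at 5.14, 6.58 and 6.46 CPM in shControl and 1.59, 1.08 and 0.940 CPM in shRNH1. This rested on 200 to 272 counts per shControl library and 31 to 54 per shRNH1 library, and the fitted level was 19.9% of control (interval 14.8% to 26.9%). The log2 fold changes of the pair, -2.39 (SE 0.103) for CCN1 and -2.33 (SE 0.210) for CCN2, were close, although CCN1 was 41.6 to 45.4 times as abundant per kilobase of exon in shControl. CCN1 ranked 31st and CCN2 36th from the lowest log2 fold change among the 19682 genes.

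ANKRD1 encodes an ankyrin repeat protein of the nucleus and the sarcomere that is best known from stressed heart muscle and is among the most responsive YAP targets. It measured 3.96, 4.09 and 4.45 CPM in shControl and 0.590, 0.513 and 0.303 CPM in shRNH1, from 154 to 169 and from 10 to 20 counts per library. It had the lowest log2 fold change of the members, -3.14 (SE 0.258), or 11.4% of control (interval 7.87% to 16.4%), and ranked 12th from the lowest of all genes tested. Its 3 shRNH1 libraries varied most, with a coefficient of variation of 31.7%, against 6.15% in shControl, at these low counts.

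AMOTL1 and AMOTL2 are angiomotin-like scaffold proteins of cell junctions that can hold YAP in the cytoplasm, and AMOTL2 is at once a target and an inhibitor. AMOTL2 measured 379, 396 and 482 CPM in shControl and 112, 137 and 113 CPM in shRNH1, 28.8% of control (interval 24.7% to 33.7%). shControl replicate 3 stood highest of the controls, and all 3 controls lay above every shRNH1 library. AMOTL1 measured 397, 387 and 423 CPM in shControl and 303, 314 and 304 CPM in shRNH1. Its groups were also apart, but at 76.2% of control (interval 66.9% to 86.9%) it was the member with the smallest difference. The ratio of AMOTL1 to AMOTL2 per kilobase was 0.523 to 0.625 in the shControl libraries and 1.36 to 1.61 in the shRNH1 libraries. By this measure, which rests on approximate exon lengths, the more abundant paralog was AMOTL2 in control cells and AMOTL1 in shRNH1 cells. By CPM their ranges overlapped in shControl, and AMOTL1 lay above AMOTL2 in every shRNH1 library.

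NUAK2, a kinase of the AMPK family that promotes actomyosin contractility, measured 57.9, 61.9 and 58.3 CPM in shControl and 27.5, 24.5 and 24.8 CPM in shRNH1. AJUBA, a LIM-domain protein of adherens junctions that binds and inhibits LATS kinases, measured 182, 185 and 202 CPM and 78.1, 87.2 and 77.8 CPM. Both lay close to each other on the relative scale, at 43.1% (interval 37.6% to 49.4%) and 42.8% (interval 37.5% to 48.9%) of control. Within each group the libraries of either gene differed by less than the gap between the groups.

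AXL is a receptor tyrosine kinase whose ligand is GAS6 and which is linked to invasion and drug tolerance in carcinoma. It was the most abundant member by CPM, at 549, 529 and 591 in the controls against 369, 366 and 338 after knockdown, 64.2% of control (interval 56.1% to 73.5%). CRIM1, a transmembrane protein with cysteine-rich repeats that binds bone morphogenetic proteins, measured 165, 149 and 160 CPM in the controls against 109, 122 and 114 CPM after knockdown, 72.7% of control (interval 63.9% to 82.8%). For both genes the groups were apart, by less than for the CCN genes. CRIM1 overlaps FEZ2 on the opposite strand, and without a stated strand setting for the counting some of their reads cannot be told apart (FEZ2 had 3615 counts over all libraries, CRIM1 30165).

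**Figure D1:**
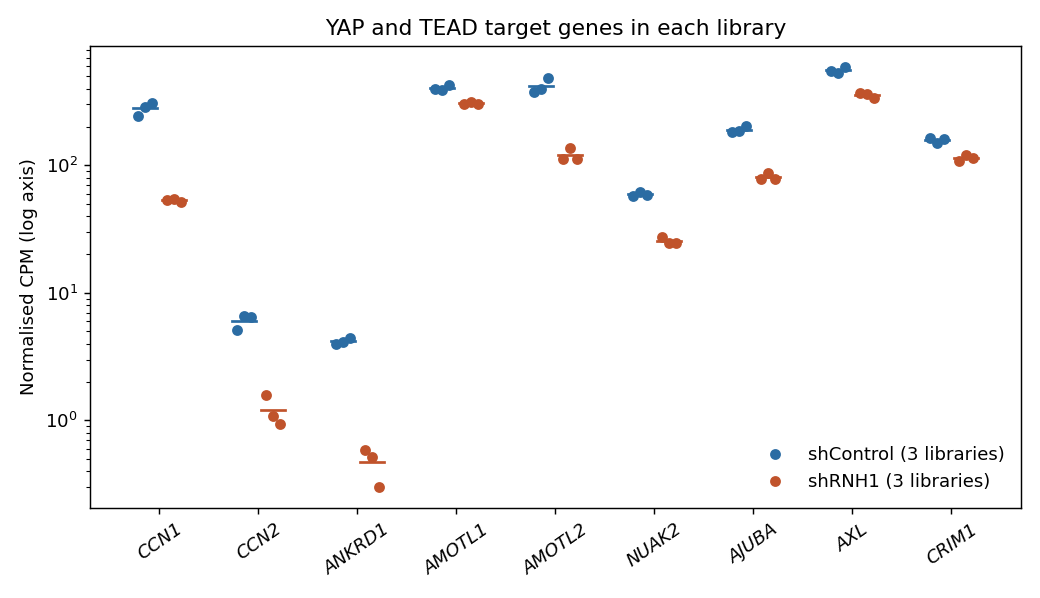
Normalised CPM (log axis) of the 9 members in the 3 shControl and 3 shRNH1 libraries; each point is 1 library and each short line the mean of 3. The groups are apart for all 9, most for ANKRD1, CCN1 and CCN2 and least for AMOTL1.

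The groups did not overlap for any of the 9 members, which passed the threshold in the fit over all genes, a count that the choice of members fixes and that is not to be read against the 12.3% of all genes called lower. The median log2 fold change of the members was -1.23, against 0.02 over all genes tested. The members spread from -3.14 to -0.39, and 6 of them were lower by a log2 fold change of 1 or more.

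Per kilobase of exon the order of the levels changed between the groups. In shControl, CCN1 (114 CPM per kilobase) and AXL (108) were highest with overlapping ranges, followed by AMOTL2 (70.0), AMOTL1 (40.1), AJUBA (31.7), CRIM1 (22.2) and NUAK2 (17.3), which did not overlap, and by CCN2 (2.59) and ANKRD1 (2.10), which did. In shRNH1 the order ran from AXL (69.3) over AMOTL1 (30.6) to CCN1 (21.6) and AMOTL2 (20.2), whose ranges overlapped, and then CRIM1 (16.1), AJUBA (13.6), NUAK2 (7.44), CCN2 (0.515) and ANKRD1 (0.237). CCN1 went from the first place to the third and AMOTL1 from the fourth to the second. Exon lengths are unions over the isoforms of GENCODE 29 and may exceed the isoform used, so these levels are approximate between genes.

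**Figure D2:**
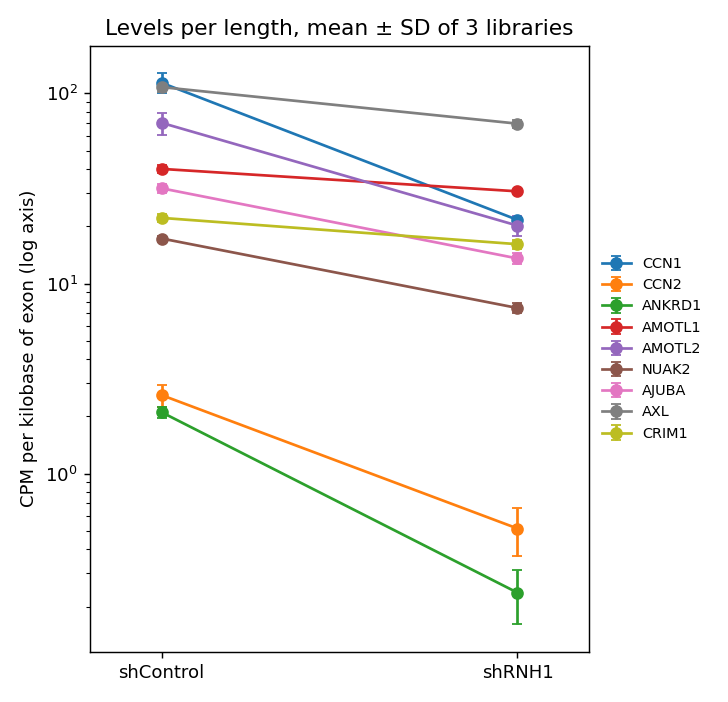
Level of each member as CPM per kilobase of exon (log axis) in shControl and shRNH1, mean ± SD of 3 libraries. The lines of CCN1 and AMOTL2 cross that of AMOTL1, and CCN2 and ANKRD1 lie lowest in both groups.

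Within the groups the members did not vary together in 1 order. Among the shControl libraries, replicate 3 was the highest for 6 members and replicate 1 the lowest for 6 (CCN1, CCN2, ANKRD1, AMOTL2, NUAK2 and AJUBA), while CRIM1 was highest in replicate 1. Among the shRNH1 libraries, replicate 2 was the highest for 5 members and replicate 3 the lowest for 5. Coefficients of variation were 3.66% to 13.2% in shControl and 1.96% to 31.7% in shRNH1, with CCN2 and ANKRD1 the only members above 12% in shRNH1.

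Relatives of the members, and the gene lists further below, were chosen with earlier results of these data known, so their counts are descriptions. The relatives moved in both directions. Of 14 relatives and ligands, 10 could be tested; 4 rose and 4 fell by edgeR's quasi-likelihood test (40% each, against 15.3% and 12.3% of all genes tested), and their median log2 fold change was near 0 (0.001, against 0.02 over all genes tested). CCN4, CCN6, AMOT and the receptor gene MERTK stayed under the filter, at 0 to 6 counts per library.

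In the CCN family the sign differed by member. CCN5, which lacks the C-terminal domain of its relatives and is often described as opposing CCN2, rose from 16.4, 15.6 and 18.5 CPM in shControl to 66.5, 68.1 and 57.6 in shRNH1 (log2 fold change 1.93, SE 0.104; edgeR adjusted p = 1.61e-13). CCN3, a growth-restraining relative, rose from 3.92 ± 0.705 to 7.89 ± 1.25 CPM (SD, n = 3 each; log2 fold change 1.01, adjusted p = 3.38e-05 by edgeR). Both therefore lay on the other side of 0 from CCN1 and CCN2.

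Relatives of ANKRD1, NUAK2 and AJUBA lay lower or did not pass. ANKRD2, the skeletal muscle counterpart of ANKRD1, fell from 9.53, 9.63 and 10.1 CPM to 3.45, 3.42 and 3.55 (log2 fold change -1.49, SE 0.141, adjusted p = 6.02e-09, edgeR). ANKRD23 measured 0.650 ± 0.128 and 0.558 ± 0.0385 CPM (SD, n = 3 each) and did not pass. WTIP (-0.51) and LIMD1 (-0.32), LIM-domain relatives of AJUBA that also bind LATS kinases, fell, as did NUAK1 (-0.35). LIMD1 did not pass without shRNH1 replicate 3 (-0.25) or with library size alone (-0.21), and NUAK1 not without shControl replicate 3 (-0.28), without shRNH1 replicate 3 (-0.29) or with library size alone (-0.24).

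Of the receptors related to AXL and their ligands, TYRO3 rose from 72.7 ± 6.397 to 101 ± 6.57 CPM (SD, n = 3 each; log2 fold change 0.47, adjusted p = 3.96e-04, edgeR). GAS6, the ligand of AXL, measured 95.5 ± 10.8 and 111 ± 9.92 CPM with overlapping groups (log2 fold change 0.22, adjusted p = 0.104, edgeR), and passed with library size alone (0.34), the expression level offset (0.29) and without shControl replicate 3 (0.31). PROS1, a ligand of TYRO3 and MERTK, rose from 2.06 ± 0.310 to 3.08 ± 0.326 CPM (log2 fold change 0.58, adjusted p = 0.0366). That call was lost by DESeq2 (0.56, adjusted p = 0.0874), with the expression level offset (0.44) and without shControl replicate 2 (0.49) or 3 (0.54) or shRNH1 replicate 1 (0.61) or 2 (0.50).

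**Figure D3:**
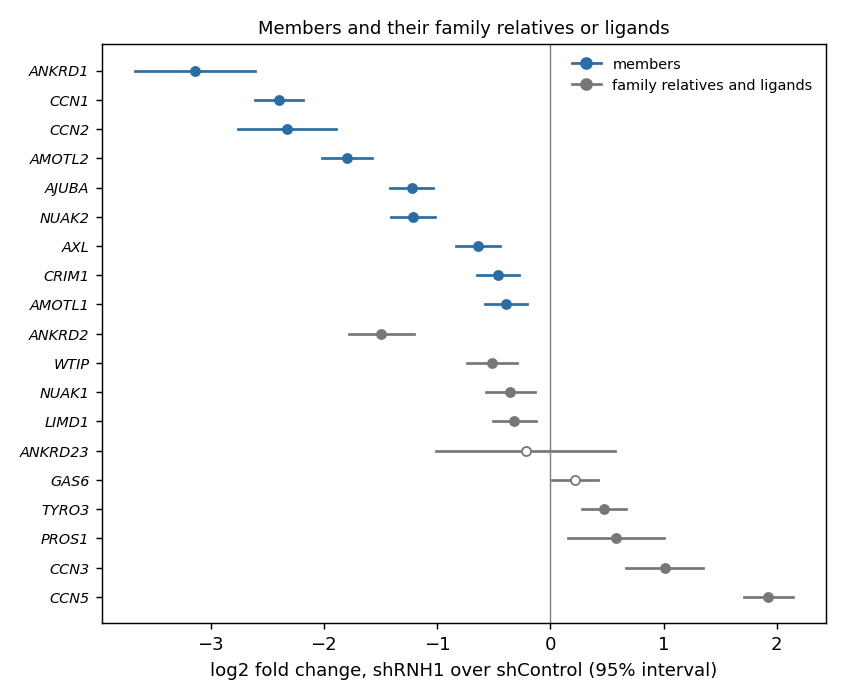
log2 fold change of shRNH1 over shControl with its 95% interval for the 9 members (blue, chosen on this contrast) and the 10 tested relatives and ligands (grey). Among the relatives, filled points passed the adjusted threshold and open ones did not; CCN5 and CCN3 lie right of 0 and ANKRD2 left of it.

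The other genes of a published consensus of YAP and TAZ targets were listed from general knowledge, with earlier results of these data known, so their count is a description. Of 15 such genes 14 could be tested, of which 11 fell and 1 rose (median log2 fold change -0.48); among all genes tested 12.3% fell. F3, tissue factor, which starts coagulation, fell from 92.2, 97.0 and 87.3 CPM to 15.7, 16.1 and 18.4 (-2.46, SE 0.101). LATS2, the Hippo kinase that YAP itself induces, fell from 69.1 ± 7.65 to 32.2 ± 5.77 CPM (SD, n = 3 each), a log2 fold change of -1.10. ASAP1 (-0.80), a regulator of Arf GTPases, GADD45A (-1.02), a growth arrest gene, FJX1 (-0.77), a secreted kinase-like protein, and PTPN14 (-0.60), a phosphatase that restrains YAP, also fell, with adjusted p from 5.21e-16 for F3 to 1.32e-05 for PTPN14 by edgeR's quasi-likelihood test. TGFB2, a TGF-beta ligand, fell from 1.17 ± 0.0893 to 0.360 ± 0.158 CPM. IGFBP3, a binding protein of insulin-like growth factors, rose from 11.6 ± 1.58 to 17.9 ± 0.768 CPM (log2 fold change 0.63, adjusted p = 1.53e-04, edgeR). With the expression level offset 7 of the 14 fell, since MYOF (-0.22), FOXF2 (-0.29), NT5E (-0.21) and DOCK5 (-0.18) then missed the threshold. These calls also depended on single libraries: FOXF2 missed it without shControl replicate 3 (-0.20) or shRNH1 replicate 1 (-0.33) or 3 (-0.29), NT5E without shControl replicate 1 (-0.28) or shRNH1 replicate 1 (-0.26), and DOCK5 without shControl replicate 1 (-0.25) or 2 (-0.24) or shRNH1 replicate 1 (-0.23) or 3 (-0.28).

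Among these targets the core TEAD motif was found in 4 of the 11 genes with a window (36.4%), and in 3 of 10 relatives with one (30%). The share was 16.7% over all 27305 genes with a window. It was 35.3% of the 17 genes with a window on the list of SRF targets given below. Those 17 genes had 42 windows, while the 11 YAP and TAZ targets had 11, so shares by gene are not alike. By window the shares were 36.4% for these targets, 25% for the relatives and 16.7% for the SRF list. Over all windows the share was 14.0%. WTIP had 3 matches, of which 1 begins with the first transcribed base. Matches are shown for comparison with those of the members, with capitals as above.
WTIP, chr19:34481629-34481658, plus strand: ccactccccccaCATTCCagaggccgcagc
WTIP, chr19:34481663-34481692, plus strand: tctccttcctcgCATTCCtgcccccgcaaa
TGFB2, chr1:218345139-218345168, plus strand: tgtcagggcgcaCATTCCacctccttcctc
PTPN14, chr1:214551785-214551814, minus strand: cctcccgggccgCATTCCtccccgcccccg
LATS2, chr13:21061560-21061589, minus strand: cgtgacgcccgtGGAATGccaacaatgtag
FOXF2, chr6:1389368-1389397, plus strand: gaggccgcgagaGGAATGaagagcgaggag
Over all genes called in either direction the shares with the motif were close to each other. A gene with at least 1 match made up 15.4% of the 1758 genes that fell, 15.4% of the 2142 that rose and 14.97% of the 8045 that did not pass. Among genes lower by a log2 fold change of at least 1 the share was 24.3% of 136, or 21.4% of 131 without the members, against 17.3% of 577 genes higher by as much. The AP-1 motif gave 16.2% and 13.7% for the same groups, and median GC content of the windows was 59.7% and 63.3%, against 65.8% over all that fell. These shares are descriptions of these windows, and the part of GC content in them was not tested.

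**Figure D4:**
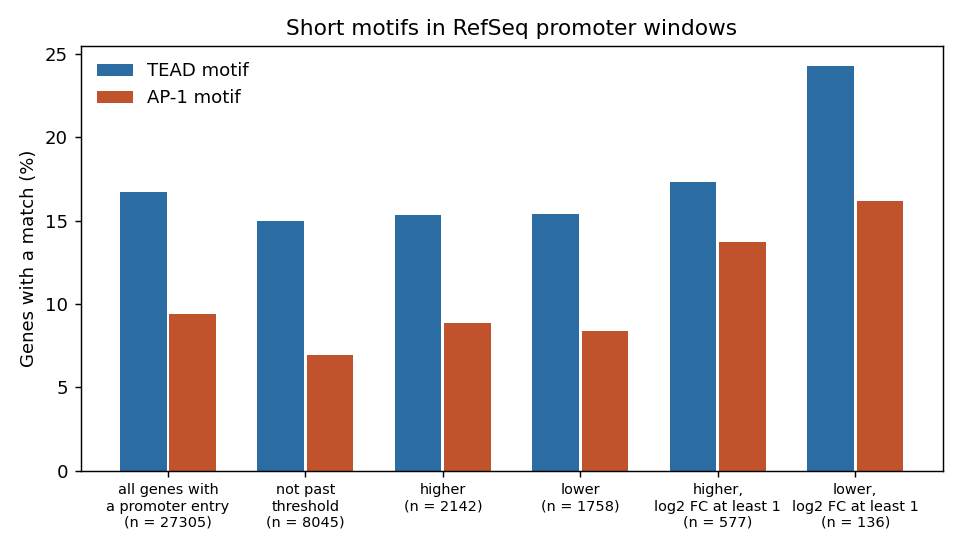
Share of genes (%) with at least 1 match of the TEAD (blue) or AP-1 (orange) core motif in a RefSeq promoter window, by the gene's call in shRNH1 against shControl; n is the number of genes with a window. Genes lower by a log2 fold change of at least 1 have the tallest bars, 24.3% and 16.2%, while all higher and all lower genes have 15.4% each for the TEAD motif.

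A second, wider signature of conserved YAP responses, written less the genes already given, was mixed. Of 44 tested genes of 47, 13 (29.5%) fell and 8 (18.2%) rose, with a median of -0.14. Over all genes tested 12.3% fell and 15.3% rose, so the share that rose was near that of all genes. THBS1, the matrix protein thrombospondin, fell from 167 ± 4.58 to 27.3 ± 0.874 CPM (log2 fold change -2.61), TGM2, a protein-crosslinking transglutaminase, from 1567 ± 124 to 429 ± 5.16 CPM (-1.87), and SLIT2, a guidance ligand, from 35.9 ± 0.668 to 13.4 ± 0.9752 CPM (-1.42; SD, n = 3 each). NDRG1 (1.57), a stress and hypoxia gene, EMP2 (1.51), a membrane protein of epithelia, and SGK1 (1.36), a serum- and glucocorticoid-induced kinase, rose. The largest edgeR adjusted p among these 6 was 4.38e-11, for SLIT2. FLNA and GAS6 are on this list and also on another.

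The transcripts of the coactivators YAP and TAZ did not pass the test, while several Hippo and TEAD genes fell. YAP1 measured 214, 201 and 237 CPM in shControl and 171, 223 and 182 in shRNH1, and the groups overlapped (log2 fold change -0.18, adjusted p = 0.212, edgeR); it passed only without shRNH1 replicate 2 (-0.30). WWTR1, which encodes TAZ, measured 91.6 ± 8.15 and 88.2 ± 4.32 CPM (SD, n = 3 each), with a 95% interval of 0.843 to 1.10 times the control level. The DNA-binding partners TEAD4 (201 ± 17.0 to 129 ± 5.76 CPM, log2 fold change -0.64) and TEAD1 (186 ± 6.82 to 137 ± 16.5, -0.44) fell, TEAD2 rose (32.3 ± 0.547 to 41.7 ± 2.78, 0.37), and TEAD3 did not pass (0.09). Of 24 tested Hippo and TEAD genes 9 (37.5%, against 12.3% of all genes tested) fell and 1, TEAD2, rose (4.17%, against 15.3%), with a median of -0.17. FRMD6 (-0.87), WWC1 (-0.60), also called KIBRA, and STK3 (-0.44), upstream activators of LATS, were among those that fell, and LATS1 (-0.15) did not pass. Some of the 9 calls were lost under alternatives. Library size alone cost STK3 (-0.33), VGLL3 (-0.57) and SAV1 (-0.25) theirs. VGLL3, whose groups overlapped, also missed the threshold without shControl replicate 3 (-0.51) or shRNH1 replicate 1 (-0.44). SAV1 missed it without shControl replicate 1 (-0.28) or shRNH1 replicate 1 (-0.35). NF2 lost its call to the offset for expression level (-0.20) and without shRNH1 replicate 3 (-0.31). The number lower ran from 6 with library size alone to 11 without shRNH1 replicate 2. Protein levels, phosphorylation and location of YAP were not measured.

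**Figure D5:**
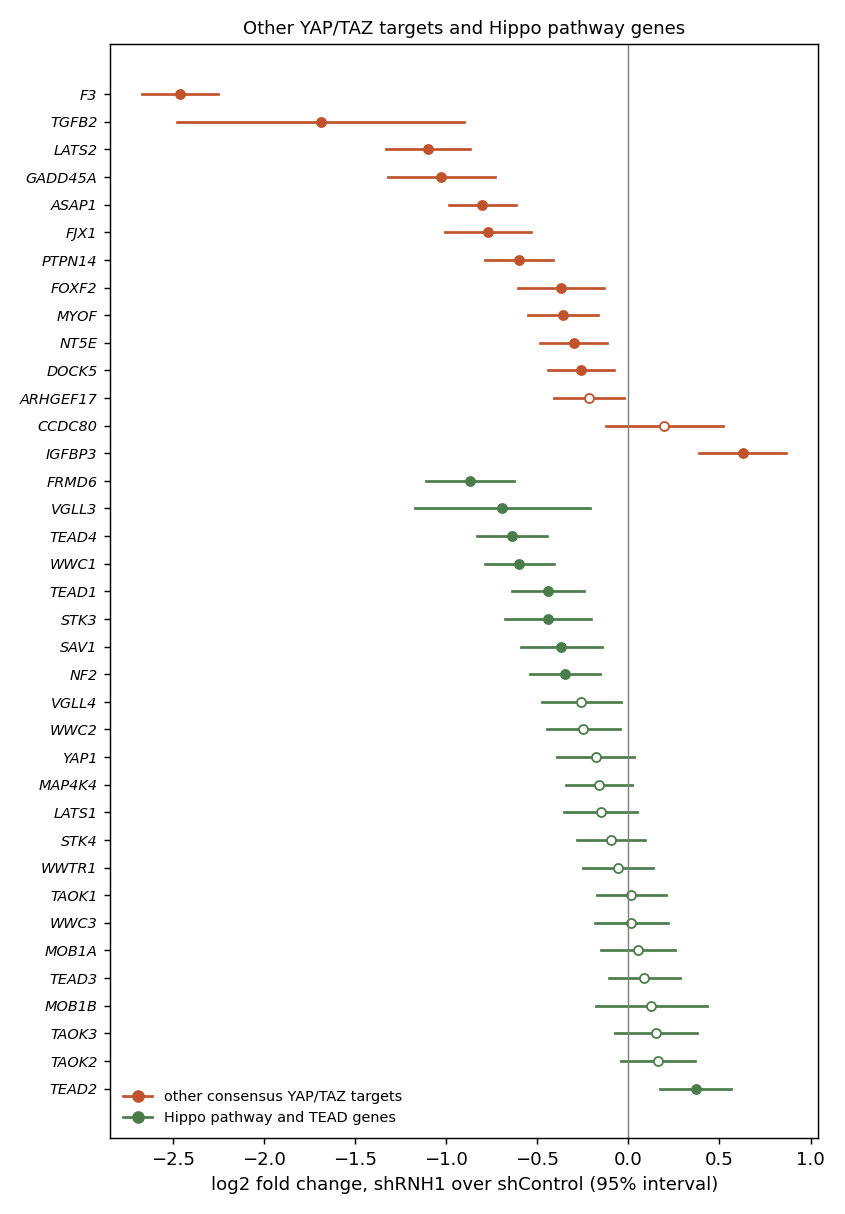
log2 fold change of shRNH1 over shControl with its 95% interval for 14 other consensus YAP/TAZ targets (orange) and for Hippo pathway and TEAD genes (green; LATS2, on both lists, is among the targets); filled points passed the adjusted threshold and open ones did not. F3 (-2.46) lies lowest, IGFBP3 and TEAD2 lie right of 0, and the intervals of YAP1 and WWTR1 include 0.

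SRF with its actin-sensing partners of the MRTF family shares targets with YAP, CCN1, CCN2 and ANKRD1 among them. The list of SRF and MRTF targets includes SRF itself and none of the members. Of its 19 tested genes, 12 (63.2%, against 12.3% of all genes tested) fell, with a median log2 fold change of -0.51 over the 19. SRF, counted among these 12, fell from 200 ± 18.0 to 135 ± 4.001 CPM (SD, n = 3 each, log2 fold change -0.57). The focal adhesion genes ZYX (-0.92) and VCL (-0.82) and the actin and actin-binding genes ACTG1 (-0.88), CNN2 (-0.77) and FLNA (-0.59) fell. The edgeR adjusted p ran from 3.04e-08 for ZYX to 3.31e-04 for FLNA. TAGLN (0.03), TAGLN2 (-0.02), ACTA2 (0.51) and ACTB (-0.31) did not pass. Some of the 12 calls were lost under alternatives. FHL2 (-0.30) missed the threshold with library size alone (-0.18), with the replicate block, and without shControl replicate 1 or 2 or shRNH1 replicate 1 or 2. TPM1 (-0.36) missed it with library size alone (-0.25) and without shControl replicate 2 or shRNH1 replicate 3. FILIP1L (-0.60) missed it with library size alone (-0.49) and without shControl replicate 2 or shRNH1 replicate 1, and CALD1 (-0.51) without shControl replicate 1. ACTA2 passed without shControl replicate 1 (0.68). ACTB, cytoplasmic actin, passed as lower by DESeq2 (-0.33) and limma-voom (-0.30), with DESeq2 size factors (-0.33), upper quartile factors (-0.30) or library size alone (-0.19), with no filter (-0.31) or a stricter one (-0.31), and without shControl replicate 2 (-0.37) or 3 (-0.26) or shRNH1 replicate 1 (-0.35). CArG boxes were found for 9 of the 17 genes of this list with a window (52.9%, against 1.60% of all genes with a window).

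SMAD proteins downstream of TGF-beta also drive CCN2. Of 9 tested SMAD targets 5 (55.6%, against 12.3% of all genes tested) fell and 1 (11.1%, against 15.3%) rose, with a median of -0.33. TGFBI (-0.97), a matrix protein, and LTBP2 (-0.65), a matrix protein that binds fibrillin, fell, and TGFB1I1 (0.80), a focal adhesion protein, rose, with adjusted p between 1.86e-08 and 0.00208 (edgeR). BHLHE40 (-0.33) and PMEPA1 (-0.38) fell in the full fit but missed the threshold without shControl replicate 3 (-0.23 and -0.24) or without shRNH1 replicate 3 (-0.29 and -0.31), and with library size alone (-0.21 and -0.26), so that 3 fell in each of these. PMEPA1 also missed it without shRNH1 replicate 1 (-0.32), and BHLHE40 with the expression level offset (-0.23). SKIL (0.31) and SMAD7 (0.19), feedback genes of the pathway, did not pass. With library size alone both passed as higher (0.42 and 0.31), and SKIL also with the stricter filter (0.31) and without shRNH1 replicate 2 (0.41).

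The genes whose log2 CPM over the 6 libraries was most like the mean standardised profile of the 9 members were TNFRSF21 (Pearson's r = 0.9994), EPHA2 (0.9993), DDX51 (0.9987), PLK2 (0.9985) and AEN (0.9985). These correlations include the difference between the groups, and 110 of 10894 genes with enough counts (mean log2 CPM from 2 upwards) reached 0.99, so they are a description of 6 libraries and not a measure of shared control. EPHA2, a receptor tyrosine kinase of the Eph family, measured 789, 778 and 899 CPM in shControl and 361, 376 and 330 in shRNH1. PLK2, a stress-responsive polo-like kinase, measured 85.5, 87.1 and 104 CPM and 22.6, 23.8 and 22.2.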

How the data were processed

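Poly(A) RNA of 6 KYSE510 libraries was sequenced, 3 shControl and 3 shRNH1. The submitters' processing notes name HISAT2, StringTie, DESeq2 and GRCh38, without roles or versions; the counter, strand setting and annotation release are not stated. The authors deposited 1 table of unnormalised whole-number counts. Symbols matched 62700 of 62700 IDs; positions and lengths came from GENCODE 29 (58207 IDs).

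Counts were tested with edgeR's quasi-likelihood test (edgeR 4.0.16, R 4.3.3; TMM, filterByExpr by group, no covariate, Benjamini-Hochberg adjustment over 19682 genes, threshold 0.05), also tested on simulated data. SE came from the F statistic, intervals from the SE, and these cover the spread between libraries. The labels call the libraries biological replicates without saying what was separate and name no batch, so p-values measure only the spread between these samples, which may be technical. No library pair was a duplicate (chi-square per gene 6.45 to 21.0 within groups). Library size sets the precision: CCN2 and ANKRD1 rest on few counts.

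The members and lists were chosen with earlier results of these data known. Lists of published targets were written from general knowledge and may differ from the published ones. Genes named were the members, RNASEH1, RNH1, YAP1, WWTR1, TEAD1 to TEAD4, LATS1, LATS2, all tested relatives, up to 6 members of each other list past the threshold, by smallest adjusted p, and the 5 genes most like the members' profile; those named besides these, for losing a call, not passing, carrying a motif match or as a marker, were chosen after their values were seen. A gene that this rule would name is not reported here, though list counts include it. Alternatives were library size alone and other size factors, limma-voom (limma 3.58.1), DESeq2 1.42.0, other filters, a replicate block, an offset for a smooth trend with expression level (spline of 5 degrees of freedom, MASS 7.3.60.0.1), and each library left out.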

Additional observations from a re-analysis of the deposited data

How the results depend on the processing

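All 135 recomputed log2 fold changes of the 9 members, over 15 alternatives, were below 0, and 127 moved by less than the spread between replicates. AMOTL1 ranged from -0.43 to -0.25 and ANKRD1 from -3.33 to -2.91. The members' median was -1.11 with library size alone, which moved the median of all genes from 0.02 to 0.13, lowered the number of genes that fell from 2418 to 1433, gave 4065 higher in place of 3006, and left 2 relatives and 3 SMAD targets lower. With the expression level offset 7 consensus targets were lower in place of 11. Leaving out each library gave 2 to 4 relatives lower (2 without shRNH1 replicate 3), 3 to 5 SMAD targets lower (3 without shControl replicate 3 or shRNH1 replicate 3) and 8 to 11 consensus targets lower. Of the 53 genes outside the members that the naming rule picks and that passed the threshold, 47 passed under every alternative that tested them. MYOF, FOXF2, NT5E, DOCK5, STK3, NF2, SAV1, VGLL3, FHL2, TPM1, FILIP1L and CALD1, named besides the rule, lost their call under at least 1. Replicate numbers are shared by the groups but did not pair the libraries: same-numbered deviations correlated at 0.039, -0.153 and -0.451 over 10901 genes. No library correlated best with its own number. With the replicate number as a block, 5094 genes passed in place of 5424, and the members' median was -1.23; DOCK5 (-0.26, adjusted p = 0.0971) and FHL2 (-0.30, adjusted p = 0.0572) did not pass edgeR's test. Depth limits CCN2 and ANKRD1 most, with 31 to 54 and 10 to 20 counts in the shRNH1 libraries.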

Other observations

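The ratio of CCN1 to CCN2 per kilobase of exon was 44.9, 41.6 and 45.4 in shControl against 31.9, 48.2 and 51.9 after knockdown, so the 2 groups overlapped, while the ratio of AMOTL1 to AMOTL2 was 0.625, 0.583 and 0.523 against 1.61, 1.36 and 1.61 and did not overlap. Among the members' relatives, CCN5 lay at 64.0 ± 5.67 CPM in shRNH1 (SD, n = 3), above CCN1 at 53.1 ± 1.82 CPM without regard to length. Per kilobase of exon the order in shRNH1 was the reverse, with CCN1 at 21.6 and CCN5 at 12.9 CPM per kilobase. In shControl CCN1 was at 279 ± 33.5 CPM and the CCN5 libraries at 16.4, 15.6 and 18.5 CPM.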
